A study of Homo sapiens with 6 samples.

Results

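The 10 genes described here drive or restrain the passage from G1 into S phase: the cyclins CCND1, CCND3, CCNE1 and CCNE2, the cyclin-dependent kinases CDK2, CDK4 and CDK6, the kinase inhibitor CDKN1B (p27), the pocket protein RB1 and the transcription factor E2F1. They were picked by gene name from the FPKM table, their counts were read by gene ID, and they are 10 of the 58825 genes listed. The study measured messenger RNA of NCI-H460 cells by RNA-seq, to learn which transcripts change when PRMT5, an enzyme that places symmetric dimethyl marks on arginines, is knocked down. NC-shRNA cells (3 libraries) carried a lentiviral control shRNA, and PRMT5-shRNA cells (3 libraries) carried a lentiviral shRNA against PRMT5. The sample titles name the control as a GFP knockdown, whereas the study's methods list a control shRNA sequence without naming a target. All 6 libraries therefore came from infected cells, and per the study's methods the knockdown cells were stable lines kept by puromycin selection. Which of the designed PRMT5 hairpins was sequenced is not named in the labels. NCI-H460 is an established large cell lung carcinoma line, although the labels call it an adenocarcinoma line. The study's text calls them biological replicates, the labels only number them, and neither says whether they came from separate infections or cultures, so p-values measure only the spread between these libraries. In bulk RNA, fewer cells in a given phase of the cycle and less RNA per cell cannot be told apart.

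In G1, D cyclins join CDK4 or CDK6 and begin to phosphorylate RB1, which in its unphosphorylated form holds E2F factors inactive. E cyclins with CDK2 complete the phosphorylation, and released E2F factors switch on genes for DNA replication together with the genes of E2F1 and the E cyclins themselves. CDKN1B binds and blocks CDK2 complexes, and its protein is destroyed through SKP2 as cells enter S phase. Much of this control acts on proteins, which RNA-seq does not measure.

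Library totals ranged from 53531257 to 70518401 estimated counts. PRMT5 itself stood at 143, 127 and 128 CPM (counts per 1000000 of the TMM-scaled library total) in the NC-shRNA libraries and at 45.8, 45.6 and 38.3 CPM in the PRMT5-shRNA libraries. The groups did not overlap, and PRMT5 was at 32.6% of its NC-shRNA level (log2 fold change −1.62, SE 0.0943, adjusted p = 0.0063 by edgeR). Of the epithelial markers, KRT8 lay between 716 and 926 CPM, while EPCAM and CDH1 lay between 0.733 and 2.1 CPM in all libraries. The summed epithelial markers were at 1467 to 1644 CPM in NC-shRNA and 1333 to 1353 CPM in PRMT5-shRNA libraries, and the summed endothelial markers at 14.4 to 15.0 and 17.3 to 20.6 CPM. For these 2 lists the sums did not overlap, and their part in the results was not tested. Within the endothelial list, CDH5 was at 9.61 to 10.8 and 11.5 to 14.0 CPM, and PECAM1 at 0.0721 to 0.447 and 1.43 to 1.91 CPM. The groups overlapped for TEK (0.566 to 0.707 and 0.415 to 1.04 CPM) and ERG (3.43 to 4.46 and 3.67 to 4.29 CPM). TIE1 reached at most 0.147 CPM in any library. The summed fibroblast markers (104 to 130 and 91.4 to 111 CPM) and blood cell markers (15.9 to 20.6 and 15.5 to 18.5 CPM) overlapped. COL1A2, PDGFRA and CD3E were at 0 in every library. Other genes of these lists were detected: DCN lay between 73.2 and 112 CPM, COL1A1 between 11.3 and 14.1 CPM and CD68 between 12.4 and 18.3 CPM.

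After PRMT5 knockdown, edgeR's quasi-likelihood test left all 10 G1 genes above an adjusted p of 0.05, against a count below it of 14 of 20295 tested genes (0.069%) in the whole table. CCND1, the cyclin D1 gene, came nearest: it was at 84.7% of its NC-shRNA level, and every PRMT5-shRNA library lay below every NC-shRNA library. It was the only member lower at an unadjusted p under 0.05 (6.29% of all tested genes were), and none was higher (6.54% of all tested genes). The fold change was negative for 7 members and positive for 3, with a median log2 fold change of −0.069 over the members and 0.0075 over all tested genes. All 10 members passed the filter on low counts, with 923 to 12360 counts per library. DESeq2 also called none of the 10, while it called 2.33% of the 17235 genes to which it gave an adjusted p. In CPM the groups did not overlap for 1 member that was lower (10.7% of all tested genes) and for no member that was higher (11.0%).

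**Figure D1:**
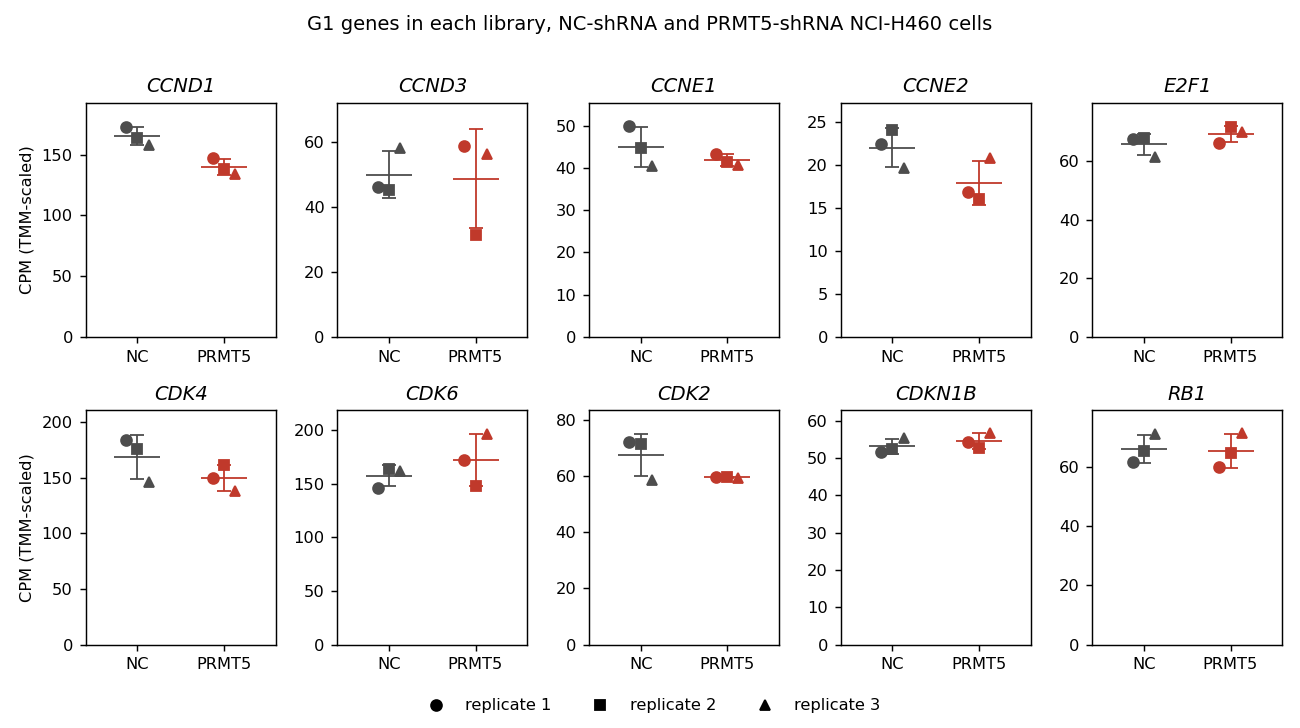
CPM (vertical axes from 0) of each of the 10 genes in the 3 NC-shRNA (grey) and 3 PRMT5-shRNA (red) libraries, with the marker shape giving the replicate number and the bars giving the mean and SD. CCND1 is the only gene whose groups do not overlap, and CCND3 has 1 PRMT5-shRNA library far below the rest.

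CCND1 (ENSG00000110092, GRCh38 chr11:69641087-69654474, plus strand) encodes cyclin D1, the growth factor-responsive partner of CDK4 and CDK6. It was measured at 173, 164 and 158 CPM in NC-shRNA and at 147, 138 and 134 CPM in PRMT5-shRNA libraries. The highest PRMT5-shRNA library was thus below the lowest NC-shRNA library. The means were 165 ± 7.56 and 140 ± 6.50 CPM (SD, n = 3 each). The log2 fold change was −0.24 (SE 0.0631, 95% interval −0.39 to −0.09), a level of 0.847 times that of the control, with an unadjusted p = 0.0069 and an adjusted p = 0.24 in edgeR. FPKM, which divides by transcript length and library size, also separated the groups, with 29.35, 28.48 and 28.01 in NC-shRNA against 26.61, 24.73 and 24.48 in PRMT5-shRNA libraries. An exact two-sided permutation test gave p = 0.1, the smallest that 3 against 3 libraries allow. LTO1 overlaps the gene on the opposite strand, and how the counting used strand is not given in the sources used here.

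CCND3 (ENSG00000112576, chr6:41934933-42050357, minus strand) encodes cyclin D3, which pairs with the same kinases. NC-shRNA libraries held 46.3, 45.3 and 58.4 CPM and PRMT5-shRNA libraries 58.8, 31.4 and 56.3 CPM. PRMT5-shRNA replicate 2 was the lowest of the 6, the other two PRMT5-shRNA libraries were among the 3 highest, and the groups overlapped. The means were 50.0 ± 7.28 and 48.8 ± 15.1 CPM (SD, n = 3 each), and the coefficient of variation of 31.0% among the knockdown libraries was the highest of any member in either group. The log2 fold change of −0.035 had a 95% interval of −0.60 to 0.53 (adjusted p = 0.97 by edgeR), so a change of up to 1.44-fold upward or to 0.660 times the control level lay within it. Its sign depended on single libraries: it was 0.20 without PRMT5-shRNA replicate 2 and 0.09 without NC-shRNA replicate 3. The processed copies CCND3P1 and CCND3P2 held at most 1 count in any library.

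The share of CCND1 in the summed FPKM of CCND1 and CCND3 was 81.8, 81.3 and 76.5% in NC-shRNA and 75.1, 84.1 and 74.2% in PRMT5-shRNA libraries. Cyclin D1 transcripts therefore outnumbered those of cyclin D3 in every library. The means, 79.9 ± 2.93% and 77.8 ± 5.49% (SD, n = 3 each), differed by −2.1 percentage points (exact permutation p = 0.7, adjusted over 3 such shares 0.7). With single libraries left out, this difference ran from −5.26 points (without PRMT5-shRNA replicate 2) to −0.30 points (without PRMT5-shRNA replicate 3). CCND2, the remaining D cyclin, was scarce, at 1.1, 0.981 and 0.934 CPM in NC-shRNA against 1.5, 1.22 and 2.09 CPM in PRMT5-shRNA libraries. Those groups did not overlap (log2 fold change 0.67, adjusted p = 0.37 by edgeR).

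CDK4 (ENSG00000135446, chr12:57747727-57756013, minus strand) encodes the cyclin D-dependent kinase and had the highest FPKM of the members. Its CPM values were 184, 176 and 146 in NC-shRNA and 150, 161 and 138 in PRMT5-shRNA libraries. NC-shRNA replicate 3 fell within the range of the knockdown libraries, whereas the other two control libraries lay above it. The means were 169 ± 20.0 and 150 ± 11.7 CPM (SD, n = 3 each), with a log2 fold change of −0.17 (95% interval −0.41 to 0.07, adjusted p = 0.53 by edgeR). TSPAN31 and MARCH9 overlap CDK4 on the opposite strand, MIR6759 lies within it on the same strand, and the processed copy CDK4P1 was at 0 counts in all libraries.

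CDK6 (ENSG00000105810, chr7:92604921-92836594, minus strand) encodes the other kinase of the D cyclins. It was measured at 146, 164 and 162 CPM in NC-shRNA and at 172, 148 and 196 CPM in PRMT5-shRNA libraries. PRMT5-shRNA replicates 1 and 3 were the highest of the 6, but replicate 2 fell among the controls. Its log2 fold change was 0.13 (95% interval −0.13 to 0.38, adjusted p = 0.67 by edgeR), opposite in sign to that of CDK4. The share of CDK4 in the summed FPKM of both kinases was 83.3, 80.9 and 78.1% in NC-shRNA and 77.6, 81.3 and 73.6% in PRMT5-shRNA libraries. CDK4 was thus the main kinase transcript in all 6 libraries, and the shares overlapped (difference −3.29 percentage points, exact permutation p = 0.3, adjusted over 3 shares 0.45). Leaving out PRMT5-shRNA replicate 2 made this difference −5.17 points, and leaving out PRMT5-shRNA replicate 3 made it −1.36 points.

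CCNE1 (ENSG00000105173, chr19:29811898-29824308, plus strand) encodes cyclin E1, an activator of CDK2 and itself a target of E2F factors. NC-shRNA libraries stood at 49.9, 44.7 and 40.5 CPM and PRMT5-shRNA libraries at 43.4, 41.5 and 40.8 CPM. All knockdown libraries lay inside the range of the controls. On the log2 scale the change was −0.10 (95% interval −0.32 to 0.11, adjusted p = 0.68 by edgeR). No other annotated gene overlaps CCNE1.

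CCNE2 (ENSG00000175305, chr8:94879770-94896678, minus strand) encodes cyclin E2 and had the lowest level of the members in FPKM. It was at 22.4, 24.1 and 19.6 CPM in NC-shRNA and at 16.9, 16.0 and 20.8 CPM in PRMT5-shRNA libraries. PRMT5-shRNA replicate 3 exceeded NC-shRNA replicate 3, and otherwise the knockdown libraries were the lower ones. The means were 22.0 ± 2.26 and 17.9 ± 2.55 CPM (SD, n = 3 each). This was the most negative fold change of the members at −0.30 on the log2 scale, with a 95% interval of −0.62 to 0.02 (adjusted p = 0.41 by edgeR). INTS8, NDUFAF6 and 2 further annotated genes overlap CCNE2 on the opposite strand.

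CCNE1 made up 80.0, 76.8 and 78.7% of the summed FPKM of the E cyclins in NC-shRNA and 82.1, 82.3 and 77.8% in PRMT5-shRNA libraries. Cyclin E1 was the main E cyclin transcript throughout. Mean shares of 78.5 ± 1.57% (control) and 80.7 ± 2.55% (knockdown) were found (SD, n = 3 each). Its difference of 2.23 percentage points did not pass the test (exact permutation p = 0.3, adjusted over 3 shares 0.45) and ran from 1.4 points without NC-shRNA replicate 2 to 3.7 points without PRMT5-shRNA replicate 3.

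CDK2 (ENSG00000123374, chr12:55966769-55972784, plus strand) encodes the kinase of the E and A cyclins. It was measured at 72.0, 71.5 and 58.7 CPM in NC-shRNA and at 59.6, 59.5 and 59.3 CPM in PRMT5-shRNA libraries. The knockdown libraries were nearly identical, with a coefficient of variation of 0.211%, and NC-shRNA replicate 3 was the lowest of all 6. The means were 67.4 ± 7.54 and 59.5 ± 0.125 CPM (SD, n = 3 each), with a log2 fold change of −0.18 (95% interval −0.40 to 0.03, adjusted p = 0.45 by edgeR). PMEL overlaps CDK2 on the opposite strand.

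CDKN1B (ENSG00000111276, chr12:12715058-12722371, plus strand) encodes p27, the inhibitor of CDK2 complexes. Its values were 51.6, 52.4 and 55.4 CPM in NC-shRNA and 54.2, 52.6 and 56.8 CPM in PRMT5-shRNA libraries. The groups overlapped and were tightly spaced. A log2 fold change of 0.037 was found, with a 95% interval of −0.12 to 0.19 (adjusted p = 0.85 by edgeR). A sense intronic transcript, AC008115.3, overlaps the gene on the same strand.

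RB1 (ENSG00000139687, chr13:48303726-48599436, plus strand) encodes the pocket protein that the G1 kinases phosphorylate. It stood at 61.6, 65.5 and 71.2 CPM in NC-shRNA and at 59.9, 64.6 and 71.3 CPM in PRMT5-shRNA libraries, with nearly the same range in both groups. The log2 fold change was −0.018 (95% interval −0.23 to 0.19, adjusted p = 0.95 by edgeR), and it was 0.04 in limma on FPKM, without NC-shRNA replicate 3 and without PRMT5-shRNA replicate 1. LPAR6 and RCBTB2 are among 8 annotated genes on the opposite strand that overlap RB1.

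E2F1 (ENSG00000101412, chr20:33675683-33686404, minus strand) encodes the activating E2F factor that RB1 binds. In NC-shRNA libraries it was at 67.6, 67.9 and 61.5 CPM and in PRMT5-shRNA libraries at 66.3, 71.7 and 69.9 CPM. PRMT5-shRNA replicate 1 fell below 2 of the controls, so the groups overlapped in CPM. Its log2 fold change was 0.077 (95% interval −0.09 to 0.24, adjusted p = 0.69 by edgeR). In FPKM the groups separated, with 20.58, 21.19 and 19.59 in NC-shRNA and 21.54, 23.12 and 22.84 in PRMT5-shRNA libraries. On that scale 2 members did not overlap, CCND1 as a lower gene (6.59% of all tested genes) and E2F1 as a higher one (14.7%). Genes that did not overlap were thus more often higher than lower in FPKM.

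The promoters of E2F1 and CDK4 are shown. Among the 7 members with a RefSeq window, they alone matched an E2F motif and an E-box, respectively. Each run is the 250 bases before the RefSeq start on GRCh38.p14, read 5′ to 3′ on the minus strand, with the matches in capitals. The E2F1 window is chr20:33686386-33686635 and its capitals mark the E2F motif. The CDK4 window is chr12:57752311-57752560, inside the span that GENCODE gives to CDK4, and its capitals mark the E-box.
E2F1: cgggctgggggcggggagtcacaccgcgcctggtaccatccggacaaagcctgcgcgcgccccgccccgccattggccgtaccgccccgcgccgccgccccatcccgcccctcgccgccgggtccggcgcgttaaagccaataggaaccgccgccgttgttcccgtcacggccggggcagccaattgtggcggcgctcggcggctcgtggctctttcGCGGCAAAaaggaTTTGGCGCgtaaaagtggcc
CDK4: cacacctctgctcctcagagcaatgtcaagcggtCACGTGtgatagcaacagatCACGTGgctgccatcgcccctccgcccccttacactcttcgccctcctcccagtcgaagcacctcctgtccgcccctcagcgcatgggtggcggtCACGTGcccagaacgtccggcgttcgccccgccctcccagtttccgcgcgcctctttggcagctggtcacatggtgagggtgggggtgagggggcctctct

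The E2F motif was searched as TTTCCCGC, TTTCGCGC, TTTGCCGC or TTTGGCGC on both strands. E2F1 held 2 matches, at 33 to 26 and at 20 to 13 bases before the start. Such a match occurred in 2.79% of all 35116 RefSeq windows of this length and in 13 of 42 windows (31.0%) of the E2F target genes considered below, of which 31 of 34 had a window. The E-box CACGTG, a sequence bound by MYC and related factors, occurred in 6.34% of all windows and 3 times in that of CDK4, at 216 to 211, 196 to 191 and 101 to 96 bases before the start. The CCAAT box, searched on both strands, occurred in 32.0% of all windows and in 4 of the 10 windows of the members. These belonged to CCND3, CDKN1B and E2F1, and CCND3 had 3 windows, not all of which matched. None of the CCAAT matches in E2F1 overlapped the E2F motif. Windows were read for 7 of the members, without CCND1, CCNE2 and CDK2. These matches describe the letters of the windows and are not evidence of binding in these cells.

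Compared per length, the members spanned from CDK4, at 45.6 ± 4.53 FPKM in NC-shRNA and 42.3 ± 3.01 FPKM in PRMT5-shRNA (SD, n = 3 each), down to CCNE2, at 4.19 ± 0.391 and 3.55 ± 0.535 FPKM. The order of mean levels was the same in both groups: CDK4, CCND1, E2F1, CDKN1B, CCNE1, CDK2, CDK6, RB1, CCND3 and CCNE2. CCND1 averaged 28.6 FPKM and E2F1 20.5 FPKM in the control cells, and both stood clear of their neighbours in either group. In the middle of the order, CCNE1 at 15.3 FPKM overlapped with CDKN1B at 17.4 FPKM and with CDK2 at 14.5 FPKM among the NC-shRNA libraries. RB1 (8.59 FPKM) and CCND3 (7.21 FPKM) overlapped in both groups, and CDK2 and CDK6 overlapped in the PRMT5-shRNA libraries. CDK4 and CCND1 thus ranked above CDK2 and the E cyclins, while CDK6 and CCND3 ranked below CDK2 and CCNE1.

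**Figure D2:**
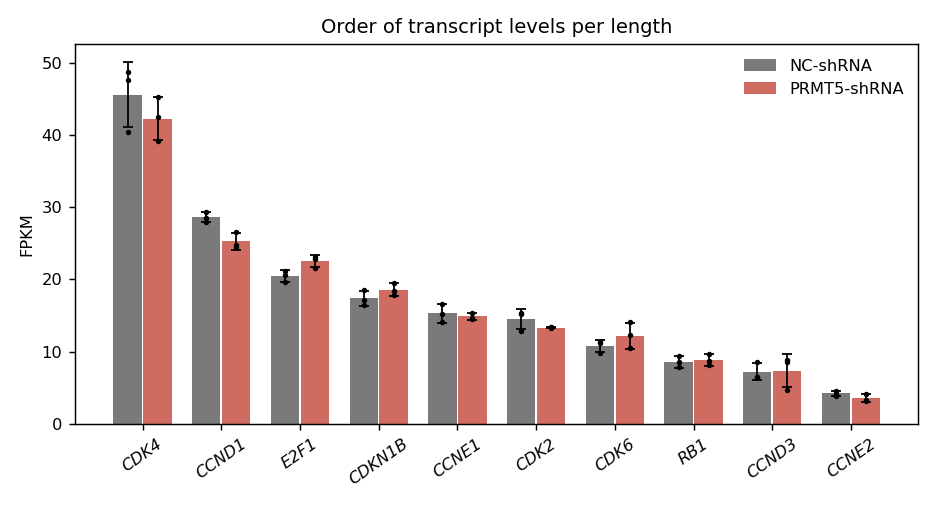
Mean FPKM with SD (bars and whiskers, linear axis from 0) of each member in NC-shRNA (grey) and PRMT5-shRNA (red) cells, with the 3 libraries as points. The order from CDK4 to CCNE2 is the same in both groups.

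The size of change that these libraries leave possible differed among the members. For 8 of the 10 genes the 95% interval of the fold change lay within 1.5-fold in either direction. The exceptions were CCND3 and CCNE2. NC-shRNA replicate 3 was the lowest of its group for 6 of the 10 members. CCND1, CCNE2, CDK2 and CDK4 were among them, so leaving this library out necessarily raises their control means. Without that library, 4 members were lower at an unadjusted p under 0.05, namely CCND1, CCNE2, CDK2 and CDK4, beside 6.71% of the 21288 genes tested, and still none passed the adjusted threshold. CDK2 then had a log2 fold change of −0.27 (edgeR unadjusted p = 0.0052), CDK4 one of −0.26 (edgeR unadjusted p = 0.019) and CCNE2 one of −0.38 (edgeR unadjusted p = 0.042). Without PRMT5-shRNA replicate 3, 2 members were lower at that level, CCND1 and CCNE2, beside 4.51% of the genes tested in that fit. Leaving out any other single library left only CCND1 at that level.

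**Figure D3:**
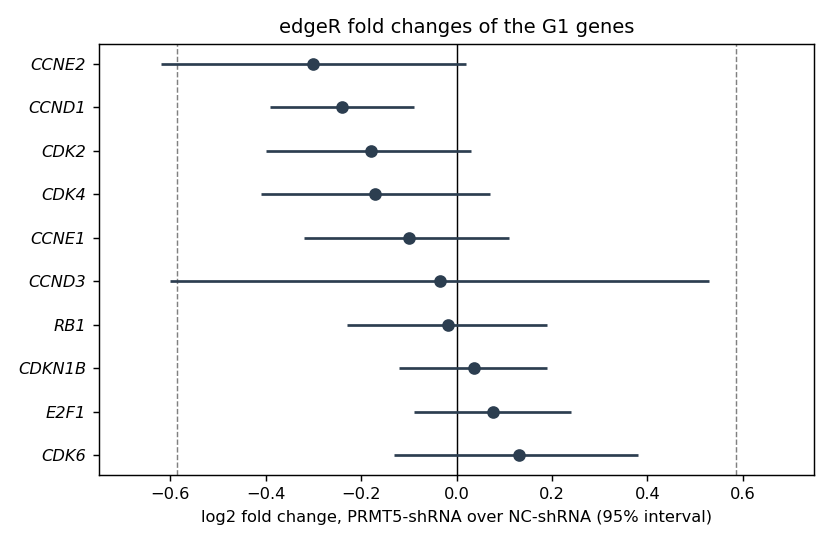
Log2 fold change (points) with its 95% interval (lines) from edgeR for each member, PRMT5-shRNA over NC-shRNA, with dashed lines at 1.5-fold. Only the interval of CCND1 stays off 0, and those of CCND3 and CCNE2 cross a dashed line.

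The genes whose pattern over the 6 libraries was most like that of CCND1 were TTLL12, ABCC1 and HABP4, out of 14060 genes with a mean of at least 100 counts. The likeness was the root mean square difference of log2 CPM after centring each gene, and was 0.0131, 0.0198 and 0.0205. TTLL12 was at 125, 120 and 114 CPM in NC-shRNA and at 109, 101 and 96.8 CPM in PRMT5-shRNA libraries, in the same order of libraries as CCND1. The nearest member was CDK2, with a difference of 0.0842 and rank 1013. These genes were selected for likeness in the same libraries, so their values are a description.

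Beyond the members, edgeR called no gene at an adjusted p of 0.05 in any of 5 lists of cell cycle genes, whose counts at an unadjusted p follow. DESeq2 called 1 of the 34 E2F target genes, RRM2, as lower and 1 of the 16 mitotic genes, MKI67, as higher. It called none in the other lists, beside 2.33% of the 17235 genes to which it gave an adjusted p. In simulated data, where only well-counted genes were changed 2-fold or 4-fold, 92 of its 282 calls were false. The share of false calls among its real calls is not known. The limma fit on log2(FPKM + 1) called none of the list genes. Negative fold changes outnumbered positive ones among the mitotic genes (13 of 16, median log2 fold change −0.10), the E2F target genes (25 of 34, median −0.093) and the turnover genes (9 of 12, median −0.091), beside a median of 0.0075 over all tested genes. The summed CPM of the mitotic genes was nonetheless higher in PRMT5-shRNA (2228 to 2344) than in NC-shRNA libraries (2189 to 2225). That sum holds MKI67, at 271, 305 and 267 CPM in NC-shRNA and at 501, 444 and 309 CPM in PRMT5-shRNA libraries. It therefore does not show a rise across the list, and a sum without MKI67 was not taken. The sums were lower for the E2F target genes (4119 to 4277 against 4357 to 4632) and the turnover genes (757 to 779 against 807 to 826). All list genes passed the filter on low counts.

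Of the 13 G1 partners and inhibitors, 1 (7.69%) was higher and 2 (15.4%) were lower at an unadjusted p under 0.05, beside 6.54% and 6.29% of all tested genes, and the median log2 fold change was 0.096. The higher gene was CCND2, given above. CDKN1C (p57), a relative of p27, was at 40.2, 35.1 and 39.0 CPM in NC-shRNA and at 32.5, 34.3 and 31.9 CPM in PRMT5-shRNA libraries (log2 fold change −0.21, adjusted p = 0.35 by edgeR). CDC25A, a phosphatase that activates CDK2, was at 68.7, 60.3 and 64.3 CPM and at 54.1, 61.1 and 52.3 CPM (log2 fold change −0.21, adjusted p = 0.39 by edgeR). CDKN1C separated the groups in CPM but not in FPKM, and CDC25A on neither scale. CDKN1A (p21), the p53-responsive inhibitor, had a log2 fold change of 0.10 (adjusted p = 0.61 by edgeR). The CDK4 and CDK6 inhibitor genes CDKN2A and CDKN2B had log2 fold changes of 0.47 and 0.14 (adjusted p = 0.53 and 0.67 by edgeR), and NC-shRNA replicate 2 was the lowest for CDKN2A, at 14.2 CPM against 28.8 to 39.4 CPM elsewhere.

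Among the 15 genes of pocket proteins, E2F and DP factors and their DREAM complex partners, 3 (20.0%) were higher and 0 lower at an unadjusted p under 0.05, beside 6.54% and 6.29% of all tested genes, with a median log2 fold change of 0.012. E2F5, a factor that works mainly with the pocket proteins as a repressor, was at 11.5, 12.5 and 11.0 CPM in NC-shRNA and at 15.4, 13.3 and 16.2 CPM in PRMT5-shRNA libraries (log2 fold change 0.35, adjusted p = 0.30 by edgeR). LIN54, the DNA-binding subunit of the DREAM core, had a log2 fold change of 0.40 (adjusted p = 0.32 by edgeR), and E2F8, an atypical repressor, one of 0.25 (adjusted p = 0.34 by edgeR). For all 3 genes, which were named for their small p, the knockdown libraries lay above the controls. In CPM the groups of 4 of the 15 genes did not overlap and were higher (11.0% of all tested genes). Those of 2 of the 15 did not overlap and were lower (10.7% of all tested genes). The other pocket protein genes RBL1 and RBL2 had log2 fold changes of −0.081 and 0.062 (adjusted p = 0.77 and 0.74 by edgeR). E2F3, an activating factor like E2F1, was at 67.3, 70.6 and 69.1 CPM in NC-shRNA and at 64.1, 62.4 and 65.8 CPM in PRMT5-shRNA libraries (log2 fold change −0.11, adjusted p = 0.49 by edgeR). Its groups separated in CPM and overlapped in FPKM.

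Of the 12 genes for turnover of G1 cyclins and p27, 0 were higher and 1 (8.33%) was lower at an unadjusted p under 0.05, close to the 6.29% of all tested genes, and 9 had a negative fold change. The lower gene was SKP2, whose product marks p27 for degradation. SKP2 was at 64.5, 65.5 and 65.4 CPM in NC-shRNA and at 59.2, 51.2 and 49.5 CPM in PRMT5-shRNA libraries. All knockdown libraries lay below the narrow range of the controls (log2 fold change −0.29, adjusted p = 0.26 by edgeR).

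Of the 34 E2F target genes, 9 (26.5%) were lower and 0 higher at an unadjusted p under 0.05, beside 6.29% and 6.54% of all tested genes. In 12 of the 34 the groups did not overlap in CPM and the knockdown was lower (10.7% of all tested genes). In 2 of the 34 they did not overlap and the knockdown was higher (11.0% of all tested genes). ORC1, a subunit of the origin recognition complex, was at 80.6, 79.6 and 69.9 CPM in NC-shRNA and at 62.1, 60.6 and 63.2 CPM in PRMT5-shRNA libraries (log2 fold change −0.31, adjusted p = 0.22 by edgeR). MCM4, a subunit of the replicative helicase, was at 332, 308 and 306 CPM and at 289, 250.0 and 252 CPM (log2 fold change −0.26, adjusted p = 0.27 by edgeR). In both genes the groups did not overlap. RRM2, the small subunit of ribonucleotide reductase, was at 245, 280.0 and 144 CPM in NC-shRNA and at 129, 140.0 and 129 CPM in PRMT5-shRNA libraries, so that NC-shRNA replicate 3 stood close to the knockdown (log2 fold change −0.75, adjusted p = 0.28 by edgeR). CCNA2, the S phase cyclin A2, was 75.7 to 81.3 CPM in the knockdown against 87.4 to 89.2 CPM in the control (log2 fold change −0.19, adjusted p = 0.29 by edgeR). NC-shRNA replicate 1 was the highest of its group for 20 of the 34 genes and NC-shRNA replicate 3 the lowest for 19.

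The count of lower E2F target genes varied with the libraries, and so did the share over all tested genes. Leaving out NC-shRNA replicate 1 gave 5 of the 34 genes (4.49% of all genes tested), replicate 2 of that group 7 (4.72%) and replicate 3 of that group 11 (6.71%). Leaving out PRMT5-shRNA replicate 1 gave 5 (5.13%), replicate 2 of that group 5 (5.15%) and replicate 3 of that group 4 (4.51%). In limma the count was 3 on log2(FPKM + 1) (4.59% of all genes tested), 2 on log2(FPKM + 0.1) (4.15%) and 7 on log2(FPKM + 1) with no filter (3.68%).

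Of the 16 mitotic genes, 1 (6.25%) was higher and 3 (18.8%) were lower at an unadjusted p under 0.05, beside 6.54% and 6.29% of all tested genes, and 13 had a negative fold change. CCNB2, cyclin B2, was at 78.2, 79.2 and 76.3 CPM in NC-shRNA and at 65.7, 68.8 and 66.4 CPM in PRMT5-shRNA libraries (log2 fold change −0.22, adjusted p = 0.23 by edgeR). BUB1B, a spindle checkpoint kinase, and PLK1, a mitotic kinase, had log2 fold changes of −0.23 and −0.20 (adjusted p = 0.33 and 0.34 by edgeR). MKI67, which encodes the proliferation marker Ki-67, had a positive fold change, at 271, 305 and 267 CPM in NC-shRNA and at 501, 444 and 309 CPM in PRMT5-shRNA libraries. The lowest knockdown library, replicate 3, was only just above the highest control (log2 fold change 0.57, adjusted p = 0.28 by edgeR).

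**Figure D4:**
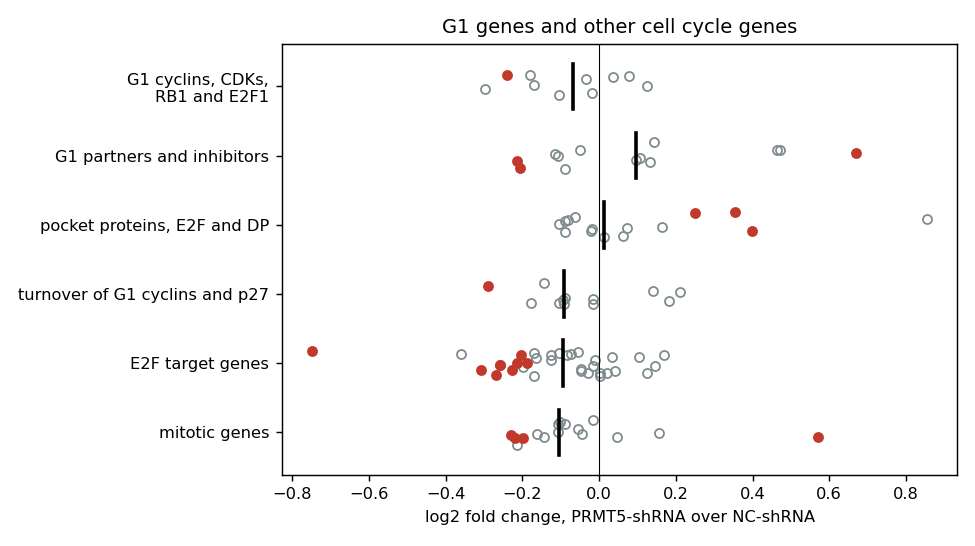
Log2 fold change (PRMT5-shRNA over NC-shRNA, edgeR) of the 10 members and of the genes of 5 cell cycle lists, with 1 point per gene, filled red points at an unadjusted p under 0.05 and black bars at list medians. The E2F target genes hold 9 filled points, all below 0, and no gene shown passed the adjusted threshold.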

How the data were processed

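RNA-seq libraries of NCI-H460 cells, 3 with NC-shRNA and 3 with PRMT5-shRNA, were grouped by their labels. Per the submitters' processing notes, the authors trimmed reads with cutadapt 1.9, mapped them to GRCh38 with HISAT2 2.0.4 and estimated expression with StringTie 1.3.4d. The methods write GRCm38, the name of a mouse assembly, and name a stranded mRNA kit. The strand setting of the counting and the annotation release are not given in the sources used here. The authors deposited estimated counts per gene, without normalization, and FPKM, scaled for length and library size. The deposited estimated counts were whole numbers, but 1214 to 1319 genes per library held 4 counts against 283 to 546 that held 3 or 5, so counts are not fragments. Library totals ranged from 53531257 to 70518401.

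Counts were scaled by TMM, filtered with filterByExpr (20295 of 58825 genes kept) and tested with edgeR's quasi-likelihood test (edgeR 4.0.16, R 4.3.3) with Benjamini-Hochberg adjustment over all tested genes. Standard errors and 95% intervals were derived from the F statistic. Single values and FPKM shares had exact two-sided permutation tests. Positions and overlaps came from GENCODE 29, which held 58552 of the gene IDs, and promoter windows from RefSeq. No library was a duplicate of another (chi-square per degree of freedom within groups of 42.9 or more).

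The members and gene lists were chosen with earlier results of these data known. Named were all members, PRMT5, up to 4 genes per list with the smallest unadjusted p under 0.05, CCND2, CDKN1A, CDKN2A, CDKN2B, RBL1, RBL2, E2F3 and SKP2, and the 3 genes most like the member with the smallest p. Alternatives were RLE and upper-quartile scaling, DESeq2 1.42.0, other filters, counts divided by 4, limma 3.58.1 on log2(FPKM + 1) or log2(FPKM + 0.1) with a minimum mean FPKM of 0.5 or none, a replicate block, and leaving out single libraries. Tested on simulated data for this comparison with 19541 genes, edgeR recovered 74% of 2-fold and 95% of 4-fold changes, with 10 false calls of 179. DESeq2 recovered 93% and 97%, with 92 false calls of 282 over 20281 genes. Only well-counted genes were changed, and none by less than 2-fold. Recovery of changes as small as those of the members was not simulated.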

Additional observations from a re-analysis of the deposited data

How the results depend on the processing

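No alternative called any of the 10 members at an adjusted p of 0.05. The direction held in all 16 alternatives for 8 members, and the log2 fold change of CCND1 ran from −0.28 to −0.17 (edgeR, DESeq2 or limma adjusted p from 0.14 to 0.49). CCND3 ran from −0.19 to 0.20 when single libraries were left out, turning positive without NC-shRNA replicate 3 (0.09) and without PRMT5-shRNA replicate 2 (0.20). RB1 was 0.04 in each of the 3 limma fits on FPKM and ran from −0.09 to 0.04 over fits without 1 library. The members at an unadjusted p under 0.05 numbered 1 in edgeR, 2 (CCND1 and E2F1) in limma on log2(FPKM + 1) with no filter, and 1 to 4 without single libraries. The E2F target genes lower at that level, a recount chosen after seeing the data, numbered 9 in edgeR, 3 in limma on log2(FPKM + 1), 2 on log2(FPKM + 0.1), 7 on log2(FPKM + 1) with no filter and 4 to 11 without single libraries. The causes of these shifts were not tested. Replicate numbers were not used to pair the libraries in the main fit. Deviations from the group means correlated at 0.035, −0.01 and −0.015 for same-numbered libraries, and at −0.027 to 0.037 for the others. This check cannot show whether same-numbered libraries shared a culture or infection. With a replicate block, CCND1 had a log2 fold change of −0.24 (edgeR unadjusted p = 0.007), and 1 member passed an unadjusted p of 0.05. For CCND3 and CCNE2 the spread between 3 libraries leaves changes over 1.5-fold within the 95% interval.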
